A study of Drosophila melanogaster with 3 samples.

Results

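The Greek-letter trypsin genes are a cluster of digestive serine proteases on the right arm of the second chromosome of Drosophila melanogaster. All 10 genes were taken by symbol from the count matrices (alphaTry, betaTry, gammaTry, deltaTry, epsilonTry, zetaTry, etaTry, thetaTry, kappaTry and lambdaTry), out of 17738 genes listed. They were followed in single-cell RNA sequencing of the dissected female intestine, from which foregut and hindgut had been removed. There was 1 library of the early pupa, labelled Red-eye pupa, 1 of the immature adult at day 1 and 1 of the mature adult at day 7 to 8. In 1 place the study's methods call the cells of the immature library pharate, a stage before eclosion, while the labels give day 1. All were labelled CantonS(per01 background), while the study's methods name CantonS alone, and all were collected at ZT0, the time of lights on. Intestines of several flies went into each library, and their number is not given in the sources used here. With no second library of any stage, stage and library cannot be told apart, no test was possible, and every interval below is an exact 95% interval that covers counting error only.

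Trypsins are secreted as inactive precursors and, once activated, cleave dietary protein after lysine or arginine. In the fly midgut they are made by enterocytes (EC), the absorptive and secretory cells that intestinal progenitors replace throughout life. Enteroendocrine cells (EE), the hormone-producing cells of the same epithelium, are not known as a source of digestive enzymes. At metamorphosis the larval midgut epithelium is shed and an adult one is formed, and feeding starts again only after eclosion.

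In the BDGP6.54 annotation, which shares the Release 6 assembly with the study's alignment, the 10 genes lay within 19289 bases of chromosome 2R, positions 11336840 to 11356128. Each was a single-exon gene with a coding length of 759 to 840 bases, and 3 were on the plus strand and 7 on the minus strand. From left to right the order was lambdaTry, kappaTry, zetaTry, etaTry, thetaTry, alphaTry, epsilonTry, betaTry, gammaTry and deltaTry. A pair of further genes, CG30031 and CG30025, stood between gammaTry and deltaTry. Some genes that were abundant at the same stage were neighbours. alphaTry (FBgn0003863, 11344260 to 11345119, minus strand), epsilonTry (FBgn0010425, 11345237 to 11346066, minus strand) and betaTry (FBgn0010357, 11346325 to 11347395, plus strand) were adjacent. kappaTry (FBgn0043471, 11337797 to 11338733, minus strand) and lambdaTry (FBgn0043470, 11336840 to 11337791, plus strand) lay side by side at the left end. The remaining genes were zetaTry (FBgn0011556, 11339186 to 11340132), etaTry (FBgn0011554, 11340513 to 11341423), thetaTry (FBgn0011555, 11341714 to 11342760) and gammaTry (FBgn0010359, 11349061 to 11349870), all on the minus strand, and deltaTry (FBgn0010358, 11355319 to 11356128) on the plus strand, where it overlapped CG13202.

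The deposited values were counts of unique molecular identifiers (UMIs), each of which marks 1 captured transcript end, so that a level does not scale with gene length. Kept cells numbered 2013 in the early pupa, 1197 in immature adults and 1980 in mature adults, with a median of 9343, 14661 and 13474 UMIs. A level below is a gene's UMIs per 1000000 UMIs of the same cells (CPM). The trypsins and 29 other gut serine proteases were left out of the genes used for clustering, though not out of the totals by which levels were scaled. EC-like clusters were named from 38 other markers, of which 34, 38 and 38 had a UMI in the 3 libraries. In each of the 15 EC-like clusters 7 to 20 of those markers were raised. EC-like cells made up 31.3% (630 cells), 37.0% (443 cells) and 72.3% (1432 cells) of kept cells. The largest groups among them were cluster 1 in the early pupa (426 cells), cluster 7 in the immature adult (174 cells), and clusters 2 and 1 in the mature adult (349 and 318 cells), so that a stage difference over EC-like cells is also a difference between clusters. Pairs of libraries shared 4, 9 and 2 cell barcodes.

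Cells of 10 EC-like clusters of the mature adult (13, 14, 16, 18, 19 and 21 to 25) and of the unnamed cluster 20 were unusually alike. Over their abundant genes other than these trypsins, the median spread between cells beyond counting was a coefficient of variation of 5.25% to 16.2%, against 21.8% or more in other mature adult clusters and 24.2% and 24.4% or more in early pupa and immature adult clusters. These 11 clusters held 662 mature adult cells, or 33.4% of those kept, and whether they are as many separate cells was not tested. Levels, family composition and calls of the mature adult are also given without them.

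As a family the trypsins were a trace of the transcripts in early pupal cells and a large part of them in mature adult cells, mainly in EC-like cells. The 10 genes together held 0.0761% of all UMIs of kept cells in the early pupa, 0.269% in immature adults and 10.2% in mature adults. In EC-like cells the shares were 0.190% (0.187% to 0.192%), 1.04% and 12.7%. Without the 11 clusters of near-identical cells, the mature adult share was 7.28% in kept cells and 12.0% in EC-like cells, of which 832 were left. The family sum was 3.53-fold higher (3.48 to 3.59) in the immature adult than in the early pupa and 37.8-fold higher (37.5 to 38.1) in the mature adult than in the immature adult. Over EC-like cells alone the steps were 5.48-fold and 12.2-fold. Without those clusters the later step was 27.1-fold over kept cells and 11.5-fold over EC-like cells.

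Single EC-like cells varied widely within a stage. The median EC-like cell gave 0.166% of its UMIs to trypsins in the early pupa, 0.798% in immature adults and 7.80% in mature adults, and the highest cell reached 0.766%, 6.52% and 23.3%. With the near-identical clusters left out the mature adult median was 4.23% and the highest cell 21.6%. At least 1 trypsin UMI was found in 93.5%, 99.1% and 100% of EC-like cells, but also in 17.9%, 70.6% and 100% of other named cells and in 18.9%, 73.3% and 99.9% of barcodes of at most 1000 UMIs (low-UMI barcodes), so in the mature adult this share does not separate the groups. The ranges of the early pupa and the mature adult overlapped. The lowest mature adult EC-like cell gave 0.0727%, in cluster 5, and the lowest cells of clusters 1 and 2 gave 0.108% and 0.424%.

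**Figure D1:**
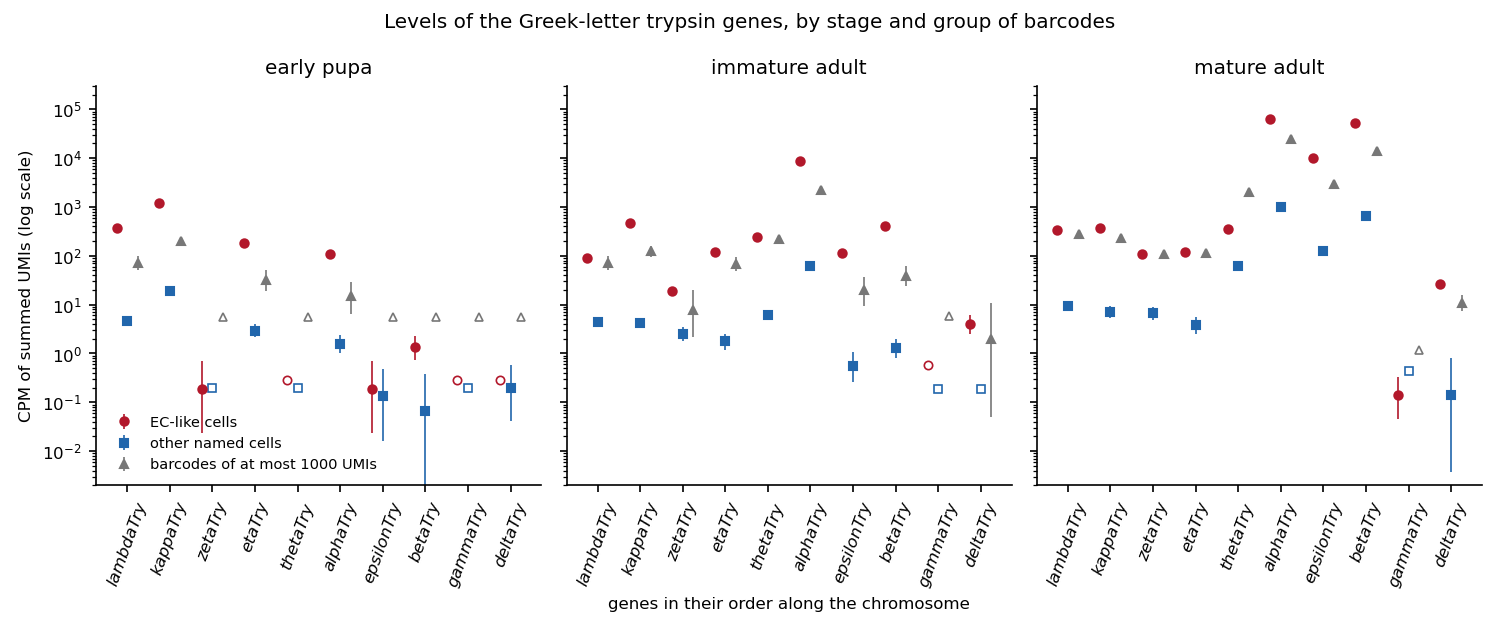
Level of each trypsin gene (CPM, log axis) in early pupae, immature adults and mature adults, with genes in chromosome order. Red circles are EC-like cells, blue squares the other named cells and grey triangles barcodes of at most 1000 UMIs of the same library. Bars are exact 95% counting intervals, and open symbols are genes with 0 UMIs, drawn at the limit of 3 counts. kappaTry stands highest among early pupal points (1233 CPM), and alphaTry (62626 CPM) and betaTry (52496 CPM) among mature adult ones, and red points lie above blue ones for every gene with at least 100 UMIs in both groups together.

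The composition of the family differed by stage. kappaTry was the leading trypsin of the early pupa, alphaTry that of the immature adult, and alphaTry and betaTry together that of the mature adult. kappaTry gave 65.0% of the trypsin UMIs of EC-like cells in the early pupa, lambdaTry 19.5%, etaTry 9.82% and alphaTry 5.63%. At day 1 alphaTry gave 85.8%, kappaTry 4.58%, betaTry 3.97% and thetaTry 2.32%. At day 7 to 8 alphaTry gave 49.5%, betaTry 41.5% and epsilonTry 8.01%, and without the near-identical clusters 49.5%, 42.6% and 6.73%.

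Cell by cell the same genes led. Among EC-like cells with at least 10 trypsin UMIs, kappaTry was the most abundant trypsin in 264 of 309 early pupa cells (85.4%) and lambdaTry in 32. alphaTry was the most abundant in 351 of 365 immature adult cells (96.2%) and in 1299 of 1413 mature adult cells (91.9%), where betaTry led in 89. Without the near-identical clusters alphaTry led in 724 of 814 mature adult EC-like cells (88.9%). In the mature adult the same order was also found outside EC-like cells, since alphaTry led in 296 of 331 other named cells (89.4%) and in 3329 of 3617 low-UMI barcodes (92.0%) with as many trypsin UMIs. A median of 3, 3 and 7 of the 10 genes were detected per EC-like cell with at least 10 trypsin UMIs, with 5, 7 and 10 at most. The mature adult median was 5 without the near-identical clusters, and it was 4 in other named cells and 4 in low-UMI barcodes. The count of genes detected also follows depth, which differed between the stages (median 6094, 4514 and 12457 UMIs per EC-like cell).

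kappaTry, lambdaTry and etaTry were already on in the early pupa. Over all kept cells kappaTry had 494 CPM in the early pupa, 122 CPM in immature adults and 295 CPM in mature adults, and it ranked as the 267th most abundant gene of the early pupa. lambdaTry had 148, 25.8 and 255 CPM, and etaTry had 75.0, 31.9 and 93.5 CPM. All of them were lowest in the immature adult. Within EC-like cells kappaTry had 1233, 476 and 377 CPM, lambdaTry 370, 91.3 and 333 CPM, and etaTry 186, 120 and 119 CPM. Seen within EC-like cells, then, kappaTry was lowest in the mature adult, etaTry differed between mature and immature adults by less than counting error (0.991-fold, 0.911 to 1.08), and lambdaTry was lowest in the immature adult.

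alphaTry was detected at all stages and was the gene that carried the rise of the family between early pupae and day 1 adults. It had 42.9 CPM (40.4 to 45.4) in kept cells of the early pupa, 2288 CPM in the immature adult and 50357 CPM in the mature adult, where it was the second most abundant gene. The steps were 53.3-fold (50.3 to 56.6) and 22.0-fold (21.8 to 22.2). Kept cells held 49483 of the 238143 alphaTry UMIs of the immature adult library, so both steps describe kept cells only. Over EC-like cells alphaTry had 107, 8922 and 62626 CPM, steps of 83.6-fold and 7.02-fold. The larger step of alphaTry within EC-like cells was thus the earlier one.

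betaTry and epsilonTry were scarce in the early pupa and abundant in the mature adult. betaTry had 0.555 CPM (15 UMIs) in kept cells of the early pupa, 102 CPM in the immature adult and 41732 CPM in the mature adult, which made it the fourth most abundant gene there. epsilonTry had 0.148 CPM (4 UMIs), 28.3 CPM and 7985 CPM. In mature over immature adults betaTry was 410-fold higher (393 to 427) and epsilonTry 282-fold higher (261 to 306). The earlier step over kept cells was 184-fold for betaTry (111 to 328), below the later one, and 191-fold for epsilonTry (74.3 to 704), whose intervals for both steps overlap. Kept cells held 2203 of the 5921 betaTry UMIs of the immature adult library, so the order of these steps may not hold beyond kept cells. Without the near-identical clusters the later step was 303-fold for betaTry (291 to 317) and 173-fold for epsilonTry (160 to 188), so the intervals of betaTry's steps then overlap as well. Within EC-like cells the same step was 127-fold for betaTry and 88.7-fold for epsilonTry. Within EC-like cells the earlier step was 311-fold for betaTry (185 to 570) and 603-fold for epsilonTry (166 to 4990), from 14 and 2 UMIs in the early pupa.

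thetaTry and zetaTry were near 0 in the early pupa and present in adults. thetaTry had 1 UMI in the 2013 kept cells of the early pupa, 83.0 CPM in the immature adult and 721 CPM in the mature adult. zetaTry had 2 UMIs, 6.43 CPM and 85.2 CPM. In EC-like cells thetaTry had 0 UMIs in the early pupa, 242 CPM in immature adults and 353 CPM in mature adults, so that it was at least 849-fold higher in the immature adult, against a floor of 3 counts in the early pupa group. Over all kept cells thetaTry was 8.69-fold higher (8.29 to 9.12) in the mature than in the immature adult, but 1.46-fold higher (1.38 to 1.55) over EC-like cells. Without the near-identical clusters the ratios were 4.23-fold (4.01 to 4.46) and 2.13-fold (2.01 to 2.27), and without cluster 20 alone the ratio over kept cells was 3.72-fold (3.54 to 3.91).

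gammaTry and deltaTry were the rarest of the family. gammaTry had 0 UMIs in early pupal and in immature adult kept cells, which allows at most 0.111 and 0.139 CPM, and 5 UMIs in the mature adult, 1 in each of 5 EC-like cells. deltaTry had 3, 22 and 1357 UMIs (0.111, 1.02 and 28.5 CPM). The counting tool keeps a read only when it is assigned to 1 gene, so reads that fit several near-identical genes are lost, and the levels of gammaTry, deltaTry and their neighbours CG30031 and CG30025 are uncertain. How alike these genes are in sequence could not be measured here.

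A gene was called different between 2 groups when it differed at least 4-fold and had at least 100 UMIs in both groups together. Between the immature adult and the early pupa, 8 of the 10 trypsins had enough UMIs. Of these 5 were higher in the immature adult (alphaTry, betaTry, epsilonTry, zetaTry and thetaTry), where 5.14% of 8014 genes tested were, and 2 were lower (kappaTry and lambdaTry), where 9.71% were. The median log2 ratio of the 8 genes was 6.09, against 0.07 over all genes tested. The lower calls were not stable. kappaTry fell by 2.02 and lambdaTry by 2.51 on the log2 scale, but with every barcode above 1000 UMIs counted their log2 ratios were -0.99 and -0.94, and with cells weighted equally they were -0.83 and -1.13. By UMIs per cell lambdaTry alone was still called lower (log2 ratio -2.09, beside -1.60 for kappaTry). Over EC-like cells the same 5 genes of 8 were higher, where 9.05% of genes were, and lambdaTry alone was lower (-2.02, beside -1.37 for kappaTry), where 5.95% were.

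Between the mature and the immature adult 9 trypsins had enough UMIs, and 7 of them were higher in the mature adult, where 3.63% of 7553 genes tested were. Both that were not called, etaTry (log2 ratio 1.55) and kappaTry (1.28), had also been on in the early pupa. So had lambdaTry (3.30) and alphaTry (4.46), which were called. None was lower, against 9.9% of genes tested, and the median log2 ratio of the 9 was 3.73, against -1.01 over all genes. Over EC-like cells 5 of the 9 were called higher (alphaTry, betaTry, deltaTry, epsilonTry and zetaTry, against 3.58% of genes), while lambdaTry was 3.65-fold higher and fell short of the threshold. With the near-identical clusters left out 4 of the 9 were called, since deltaTry was then 3.36-fold higher (2.13 to 5.59). None was lower, where 9.2% of genes were. Without the 11 clusters of near-identical cells 7 were called over all kept cells as before, but the log2 ratio was 3.05 in place of 4.81 for deltaTry, 2.08 in place of 3.12 for thetaTry and 7.43 in place of 8.14 for epsilonTry.

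Between the mature adult and the early pupa, 6 of 9 trypsins were higher, where 5.43% of genes tested were, and none was lower, where 18% were. The median log2 ratio of the 9 was 10.17, against -0.93 over all genes. betaTry was 75192-fold higher in the mature adult, but with 15 UMIs in the early pupa its interval ran from 45589 to 134345. kappaTry (log2 ratio -0.75), etaTry (0.32) and lambdaTry (0.79) stayed within 4-fold. Without the clusters of near-identical cells the log2 ratio of etaTry was -0.21, and 6 genes were called higher as before, with 6.24 in place of 8.01 for deltaTry, 13.21 in place of 14.25 for thetaTry and 15.01 in place of 15.72 for epsilonTry. Over EC-like cells 6 of 9 were higher, where 7.61% of genes were, and none was lower, where 14.4% were. Within EC-like cells lambdaTry and etaTry were 0.90-fold and 0.636-fold the early pupa level, and kappaTry was 0.306-fold.

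The other digestive serine proteases on the list were the Jonah family, chymotrypsin-like proteases and the trypsins outside the cluster, iotaTry and Try29F. For the immature adult over the early pupa 25 of the 29 had enough UMIs, and 17 were at least 4-fold higher and 6 lower, with a median log2 ratio of 5.61. For the mature over the immature adult 24 of 29 were higher and 1 lower. For the mature adult over the early pupa 23 of 29 were higher and 4 lower, beside 6 of 9 and none for the trypsins of the cluster. The 1 that was lower in the mature than in the immature adult was Try29F, which had 579 CPM in the early pupa, 39.4 CPM in immature adults and 1.09 CPM in mature adults. Like kappaTry it was present in the early pupa, while in the mature adult kappaTry had 295 CPM.

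Every trypsin with enough UMIs was higher in EC-like than in other named cells. In the early pupa 4 of 4 genes with enough UMIs were at least 4-fold higher in EC-like than in other named cells, where 7.15% of genes tested were. In the immature adult 8 of 8 were, against 9.64%, and in the mature adult 9 of 9, against 8.17%. Against other named cells no trypsin was lower in EC-like cells, where 25.1%, 25.6% and 39.7% of genes were. Many members reached the minimum of 100 UMIs only through EC-like cells, such as mature adult deltaTry (954 UMIs, beside 1 in other named cells). Members scarce in EC-like cells, such as early pupal deltaTry (0 UMIs, beside 3), could not enter, so these counts are partly set by the minimum. Without the clusters of near-identical cells 9 of 9 were again higher in the mature adult. With unnamed cells added to the other group, thetaTry was instead lower in mature adult EC-like cells (log2 ratio -2.40) and deltaTry did not pass (-0.38). EC-like cells held 36.9% of the thetaTry UMIs and 70.3% of the deltaTry UMIs of kept mature adult cells, and 93.9% or more of those of the other members. Other gut proteases gave 9 of 9, 23 of 24 and 27 of 28 higher. These genes were left out of the genes used for clustering, but their UMIs still counted in the totals by which levels were scaled. Other genes of the same cells made the clusters, and some genes outside the list follow the trypsins closely. The level of Bace, an aspartic protease, followed that of betaTry over groups of cells (Pearson's r = 0.99). Whether the split follows from such genes among the clustering features was not tested.

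The size of the contrast differed between genes. Early pupal kappaTry had 1233 CPM in EC-like cells and 18.8 CPM in other named cells (65.7-fold, 58.4 to 74.2), and lambdaTry had 370 and 4.73 CPM (78.3-fold). Immature adult betaTry had 413 CPM in EC-like cells and 1.32 CPM in other named cells (313-fold), and zetaTry had 18.8 and 2.52 CPM (7.49-fold). Mature adult alphaTry had 62626 CPM in EC-like cells and 982 CPM in other named cells (63.8-fold, 62.3 to 65.3). thetaTry was the least confined in the mature adult, with 353 CPM in EC-like cells and 63.2 CPM in other named cells (5.58-fold, 5.07 to 6.15). deltaTry rested on 1 UMI in other named cells, and its ratio of 184 had an interval of 33.0 to 7276.

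The share of cells with a UMI separated EC-like cells from the rest less well as levels grew. alphaTry was found in 99.7% of mature adult EC-like cells (median 12457 UMIs), but also in 99.1% of progenitor-like cells (median 21956 UMIs) and 99.1% of EE-like cells (median 12060 UMIs). After each cell was thinned to 1000 UMIs the shares were 98.7%, 46.4% and 75.5%. For kappaTry the mature adult shares were 74.4%, 11.2% and 12.3%, and thinned ones 29.3%, 0% (0 of 233 cells, which allows up to 1.29% at a limit of 3 counts) and 2.83%. Early pupal kappaTry was found in 89.8% of EC-like cells, 10.8% of progenitor-like cells and 13.9% of EE-like cells, and after thinning in 61.0%, 0.875% and 2.53%. The thinned shares keep EC-like cells first for each of these genes and stages.

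Barcodes of at most 1000 UMIs were taken as a rough comparison for trypsin RNA outside intact cells. There were 718 in the early pupa, 738 in immature adults and 3694 in mature adults, with a median of 732, 664 and 661 UMIs. All had at least 500 UMIs, and 491, 198 and 3188 of them had less than 25% mitochondrial UMIs. Whether they held free RNA or damaged cells was not tested. Trypsins made up 0.0321%, 0.280% and 4.43% of their UMIs. Against these barcodes, the trypsins of all kept cells gave no call in any library. The background for the 3 libraries was 2.36%, 7.73% and 1.27% of genes higher and 0.638%, 0.926% and 1.54% lower.

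By the fold of the trypsins, EC-like cells stood above these barcodes in the early pupa and less so later. In the early pupa 4 of 4 genes were called higher in EC-like cells (against 6.87% of genes), with 1233 CPM in EC-like cells and 202 CPM in low-UMI barcodes for kappaTry. In the immature adult betaTry and epsilonTry were called, 2 of 8 genes (against 8.43%). At day 7 to 8 no trypsin was called higher, where 0.105% of genes were, and thetaTry was called lower, where 6.07% were. Without the near-identical clusters thetaTry was no longer called (log2 ratio -1.94, beside -2.49 with them). alphaTry had 62626 CPM in EC-like cells and 24431 CPM in low-UMI barcodes of the mature adult (2.56-fold), and thetaTry had 353 and 1984 CPM. By rank among all genes tested, mature adult trypsins ran from percentile 1.98 (thetaTry) to 99.9 (betaTry), with alphaTry at 99.6. The median log2 ratio of all genes there was -0.79. Early pupal trypsins ran from percentile 96.6 (lambdaTry) to 99.1 (alphaTry), so by rank the leading genes did not stand out less later. Counted per barcode, thetaTry had 8.85 UMIs per EC-like cell and 1.38 per low-UMI barcode, whose median totals were 12457 and 661 UMIs. The cause of its lower CPM was not tested.

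Counted per barcode, progenitor-like cells held about as many trypsin UMIs as barcodes of at most 1000 UMIs. In the mature adult the 10 genes together gave 3176 UMIs per EC-like cell, 55.2 per EE-like cell and 29.1 per progenitor-like cell (28.4 to 29.8), and 30.9 per low-UMI barcode (30.7 to 31.0). alphaTry gave 1571 UMIs per EC-like cell, 28.4 per EE-like cell and 15.9 per progenitor-like cell, and 17.0 per low-UMI barcode. At day 1 the family sum was 123, 2.71 and 1.46, and 1.93 per low-UMI barcode. In the early pupa it was 31.8, 0.297 and 0.280, and 0.237 per low-UMI barcode. The alphaTry UMIs of progenitor-like cells in the immature and the mature adult were at or below those of low-UMI barcodes, and their source was not tested. Those of EE-like cells in the mature adult were above that level in the mean, with a median of 16.0 UMIs per cell and a highest cell of 906.

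**Figure D2:**
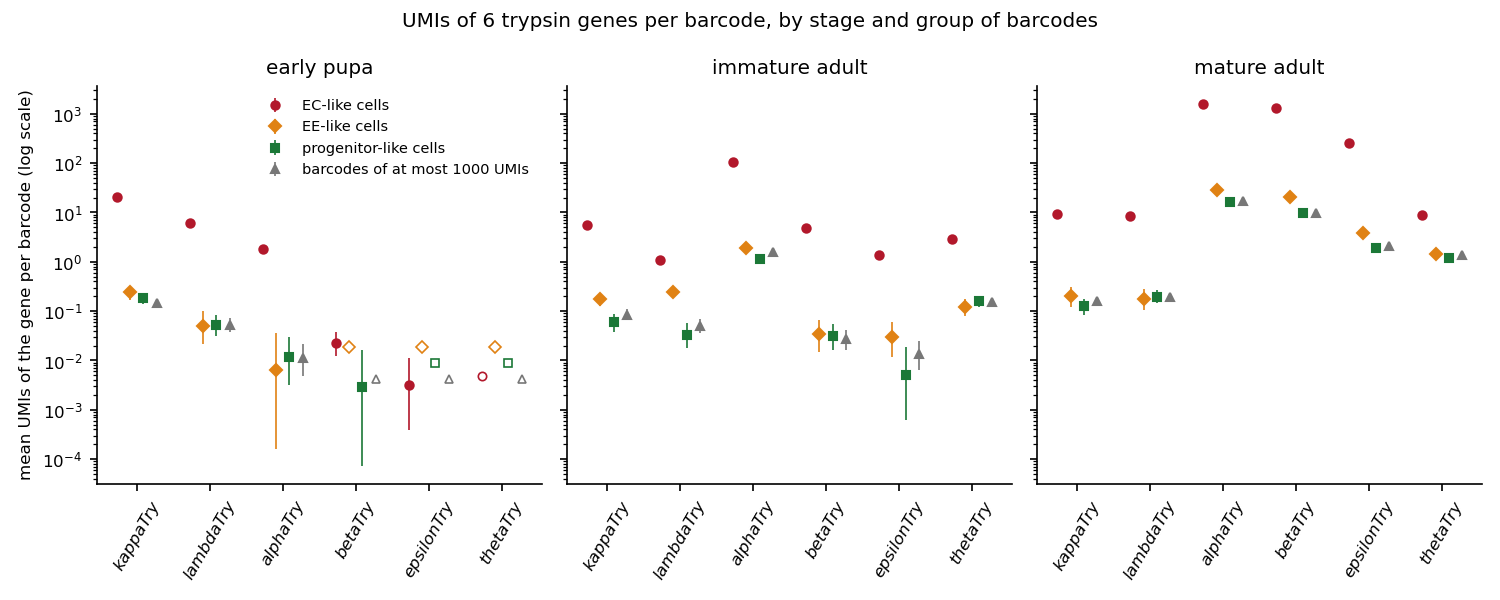
Mean UMIs per barcode (log axis) of kappaTry, lambdaTry, alphaTry, betaTry, epsilonTry and thetaTry in EC-like, EE-like and progenitor-like cells and in barcodes of at most 1000 UMIs, by stage, with exact 95% counting intervals. The progenitor-like and low-UMI points lie close together, for example at 15.9 and 17.0 UMIs of alphaTry in the mature adult, while EC-like cells had 1571.

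The ratio of the genes to each other also differed between these groups. Among mature adult cells betaTry had 83.8 UMIs per 100 of alphaTry in EC-like cells, 72.9 in EE-like cells and 60.3 in progenitor-like cells, and 58.1 in low-UMI barcodes. thetaTry had 0.563 per 100 of alphaTry in EC-like cells and 7.59 in progenitor-like cells, and 8.12 in low-UMI barcodes. In progenitor-like cells both ratios were thus nearer to those of low-UMI barcodes than to those of EC-like cells. In unnamed cells thetaTry had 15.2 per 100 of alphaTry.

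Within the EC-like class, clusters differed by which trypsin they carried. Cluster 9, with 32, 60 and 29 cells in the 3 stages and 20 raised EC markers (mannosidases LManIII, LManV and LManVI and the maltase Mal-A3 among them), kept the early set at every stage. There kappaTry had 1547, 1055 and 1333 CPM, lambdaTry 1876, 711 and 2127 CPM, and etaTry 453, 375 and 637 CPM. In the same cluster alphaTry had 2.22, 2357 and 3296 CPM and zetaTry 0, 37.1 and 972 CPM. Most of the early set's UMIs in the early pupa were in 2 clusters, with 71.9% of kappaTry in cluster 1, and 48.5% and 42.3% of lambdaTry in clusters 1 and 9.

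Clusters 1 and 5 each carried their own mixture. In cluster 1 kappaTry had 1542 CPM in the early pupa, 236 CPM in immature adults and 444 CPM in mature adults, while alphaTry had 157, 7933 and 21834 CPM. In cluster 5 kappaTry had 571, 16.9 and 77.2 CPM, alphaTry 2.79, 9592 and 8195 CPM, and thetaTry 0, 718 and 2254 CPM. Cluster 5 held 61.7% of the thetaTry UMIs of the immature adult. By summed UMIs alphaTry was thus at a like level in both clusters by day 1. The median cells differed, with 0.256% of UMIs from trypsins in cluster 1 and 1.28% in cluster 5. Of the pair only cluster 1 had a higher summed alphaTry level in mature adults. Both clusters were then below the 24431 CPM of alphaTry in low-UMI barcodes.

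Mature adult EC-like clusters formed a group with very high and a group with low trypsin levels. In clusters 2, 7, 13, 14, 18, 22, 23 and 24 alphaTry had 68431 to 93477 CPM and betaTry 52255 to 79338 CPM, and the median cell gave 12.2% to 17.6% of its UMIs to trypsins. In clusters 1, 5, 9, 16, 19 and 21 the median cell gave 0.922% to 2.37%, and alphaTry had 3296 to 21834 CPM. Low-UMI barcodes of the mature adult were above this low group, with a median of 4.51% and 24431 CPM of alphaTry. Cluster 25 stood between by its median of 11.4%, which was nearer to the high group. Of the high group, clusters 2 and 7 are not among those with near-identical cells, and cluster 2 alone had 72213 CPM of alphaTry and 65714 CPM of betaTry over 349 cells.

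**Figure D3:**
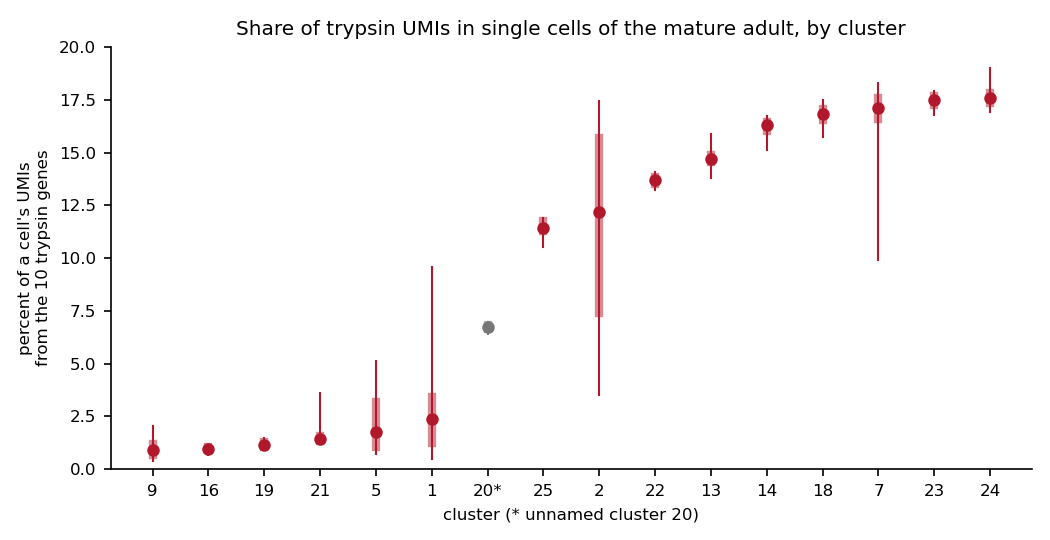
Share of each mature adult cell's UMIs that came from the 10 trypsins (percent), by EC-like cluster and for the unnamed cluster 20 (grey), in order of the median. Dots are medians, thick lines run from the 25th to the 75th percentile of cells and thin lines from the 5th to the 95th. Medians run from 0.922% in cluster 9 to 17.6% in cluster 24, with a step between 2.37% in cluster 1 and 6.72% in cluster 20.

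The low group of clusters held the highest EC-like levels of kappaTry, lambdaTry, etaTry, zetaTry and thetaTry. lambdaTry had 2127 CPM in cluster 9 and 1259 CPM in cluster 16, the latter of which held 24.9% of its mature adult UMIs. In cluster 25, outside the low group, it had 1308 CPM. zetaTry was highest in cluster 19 (1378 CPM) and cluster 9 (972 CPM), which held 22.5% and 15.1% of its UMIs, against 28.0 CPM in cluster 2. thetaTry had 2254 CPM in cluster 5, 1872 CPM in cluster 1 and 1471 CPM in cluster 19, against 102 CPM in cluster 2. Low-UMI barcodes of the mature adult had 1984 CPM of thetaTry, above clusters 1 and 19 and below cluster 5. Clusters 16, 19 and 25 are among those with near-identical cells, while clusters 1, 5 and 9 are not.

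thetaTry reached its highest level outside the named classes, in cluster 20. This cluster of 62 mature adult cells had 6 EC and 6 pupal-cell markers raised and was left unnamed. Its leading genes were CG3344, CG10799, CG16775, CG6403, CG10477, CG8560 and thetaTry itself. There thetaTry had 5373 CPM, and the cluster held 60.7% of all thetaTry UMIs of kept mature adult cells. With every cell outside EC-like clusters as the other group, the log2 ratio of EC-like over other cells turned to -2.40 for thetaTry and to -0.38 for deltaTry in the mature adult, and with cluster 20 counted as EC-like it was 3.74 and 7.88, beside 2.48 and 7.52 with it left out. Cells of cluster 20 were among the near-identical ones, with a spread of 5.25%.

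deltaTry was spread over few clusters as well. Its highest level was 236 CPM in cluster 25, followed by 102 CPM in cluster 20 and 83.0 CPM in cluster 22. These 3 clusters held 15.5%, 29.2% and 27.5% of its mature adult UMIs, and all of them are among those with near-identical cells. In the larger clusters 1 and 2 deltaTry had 35.5 and 9.75 CPM.

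**Figure D4:**
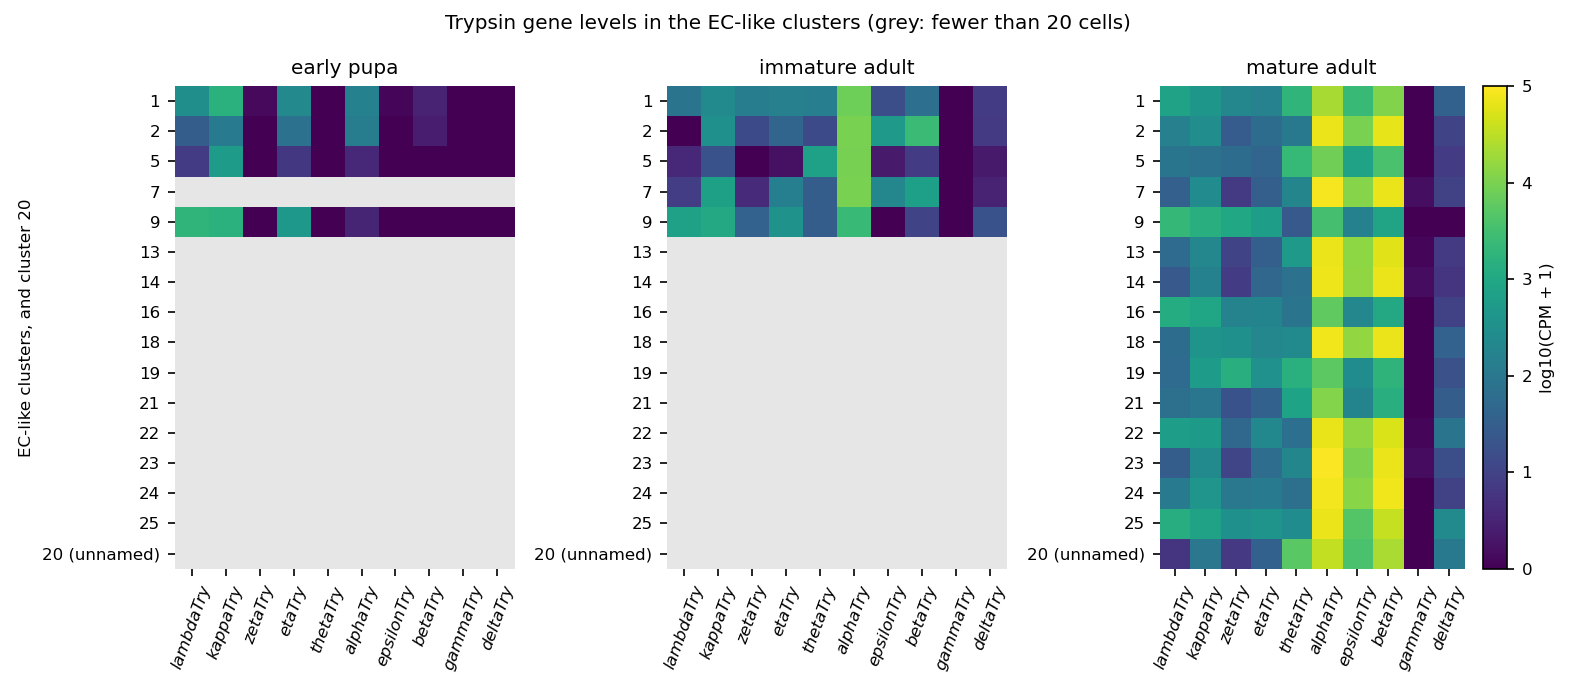
Level of each trypsin, as log10(CPM + 1), in each EC-like cluster and in cluster 20, by stage; grey cells are clusters with fewer than 20 cells in that library. kappaTry, lambdaTry and etaTry are high in cluster 9 at every stage, and alphaTry and betaTry are high across most mature adult clusters. Higher levels are drawn brighter, and thetaTry is brightest in cluster 20 at 5373 CPM.

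Over 46 groups of cells, each from 1 cluster and 1 library, the members fell into sets by the likeness of their levels. The groups share 3 libraries, and the correlations of log levels are descriptions only. betaTry and epsilonTry followed each other with r = 0.99, alphaTry and betaTry with 0.90, etaTry and kappaTry with 0.91, etaTry and lambdaTry with 0.85, and kappaTry and lambdaTry with 0.77. kappaTry and thetaTry had r = 0.22.

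By the same measure 4860 genes were set beside each member. Jon65Aiii, a Jonah protease, was most like alphaTry (r = 0.98), and Bace, an aspartic protease, was most like both betaTry (0.99) and epsilonTry (0.99). The genes nearest to the others were CG9673 for kappaTry (0.95), CG10116 for etaTry (0.93), CG10472 for lambdaTry (0.92), CG8628 for zetaTry (0.89), CG10477 for thetaTry (0.88) and CG14499 for deltaTry (0.76). deltaTry had no gene as near to it as the other members had.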

How the data were processed

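The authors aligned the reads to Drosophila reference genome 6.25 and counted them with Cell Ranger 3.0.2, and the deposited values are raw UMI counts per gene and barcode. All barcodes in the matrices had at least 500 UMIs. Kept cells had less than 25% mitochondrial UMIs (38 genes), more than 200 and fewer than 4000 genes, and more than 1000 and fewer than 100000 UMIs, which left 2013, 1197 and 1980 cells with 27026674, 21629263 and 47585248 UMIs.

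The 3 libraries were joined with reciprocal PCA in Seurat 5.3.0 (R 4.3.3) with 14 components, resolution 0.5 and 2000 variable features, 1973 after the proteases were left out, and the clustering gave 26 clusters. A marker was raised when its log2 fold over other cells was above 0.5, with 20 CPM added, and over 10% of cells held it. Each cluster was given the class with the most raised markers, at least 5 and at least 2 times any other list, but stayed unnamed if its median UMI count was below 1/3 of the level of its own libraries and its top 10 genes held no marker of the class, or if those 10 held more markers of another class. Naming was settled only once the data had been seen, and the names are not the authors' annotation. Marker lists rest partly on markers the study drew from these libraries. Scrublet called 8 of 5190 cells as doublets (0.154%), too few for a working call, so doublets were kept.

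Levels are summed UMIs as CPM, with exact Poisson, Clopper-Pearson or conditional ratio intervals at 95%. A ratio against 0 UMIs was computed against 3 counts per group. Computations ran in Python 3.11.15 with scanpy 1.11.5, scipy 1.17.1, pandas 2.3.3, matplotlib 3.10.9 and numpy 2.4.6, and the ratios and calls were tested on simulated data. Likeness is Pearson's r of log2(CPM + 10) over groups of at least 20 cells, among genes with at least 1000 UMIs. All 10 members were named. The members, the gene lists and the 4-fold rule were chosen with earlier results of these data known. Of the alternatives, 24 were planned and 7 were added after seeing the data. Sequences were not used here.

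Hemocyte markers summed to 16.8, 480.5 and 5.09 CPM and fat body markers to 12.6, 36.0 and 8.24 CPM in early pupae, immature adults and mature adults. Of 8 hemocyte markers 7, 7 and 5 were detected, and of 8 fat body markers 8, 5 and 4. Their part in the results was not tested.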

Additional observations from a re-analysis of the deposited data

Results flagged for a closer look

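Trypsin UMIs were also present in barcodes that the filter on cells left out for having at least 100000 UMIs or 4000 genes. There were 165 of these in the early pupa, 208 in immature adults and 206 in mature adults. Their UMIs enter none of the levels of kept cells above. The 10 genes held 0.150% of their UMIs in the early pupa, 0.810% in immature adults and 3.40% in mature adults, above the limit that a count of 0 allows. kappaTry had 1028 CPM in these barcodes of the early pupa, 538 CPM in those of the immature adult and 477 CPM in those of the mature adult. In the immature adult they held 182742 of the 238143 alphaTry UMIs of the library, against 49483 in kept cells. In the early pupa they held 19440 of the 33278 kappaTry UMIs, against 13359 in kept cells.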

How the results depend on the processing

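No paired analysis was possible because the libraries share only the replicate number 1. Of 138 counts of calls recomputed under the alternatives, 130 stayed within 1.5 times their first value. The count of trypsins at least 4-fold lower in the immature adult than in the early pupa, 2 over kept cells, was 0 with every barcode above 1000 UMIs and 0 with the mean of single cells, and 1 by UMIs per cell and 1 over EC-like cells. In the mature adult 1 trypsin, thetaTry, was lower in EC-like cells once all cells outside EC-like clusters were taken as the other group, with a log2 ratio of -2.40, and deltaTry turned to -0.38. With low-UMI barcodes below 25% mitochondrial UMIs, 1 trypsin was called higher in kept cells of the early pupa (alphaTry, 2.30) and 1 lower in those of the immature adult (lambdaTry, -2.08), where there had been none. Without the near-identical clusters 0 trypsins, in place of 1, were lower in mature adult EC-like cells than in low-UMI barcodes. Of 531 log2 ratios of single genes, 312 stayed within their counting interval, 217 left it with the same sign or without a call, and thetaTry and deltaTry turned as above. Of 120 percents 32 stayed within their interval and 88 left it. With the 50 most abundant genes out of the denominator, every log2 ratio shifted by -0.11 for the immature adult over the early pupa, by 0.46 for the mature over the immature adult and by 0.34 for the mature adult over the early pupa. A limit of 500 UMIs for low-UMI barcodes could not be used, since 2, 3 and 0 barcodes had as few. The cause of these changes was not tested. Depth limits gammaTry, with 0, 0 and 5 UMIs in kept cells, and in the early pupa thetaTry, zetaTry, deltaTry and epsilonTry, with 1, 2, 3 and 4. Lost shared reads may also limit gammaTry and deltaTry, which was not tested.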

Other observations

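CG30031 and CG30025, the genes between gammaTry and deltaTry in the cluster, were also found mainly in the mature adult. Over all barcodes CG30031 had 0 UMIs in the early pupa, 3 in immature adults and 49 in mature adults, and CG30025 had 0, 0 and 145. gammaTry had 0, 0 and 8 UMIs and deltaTry 6, 85 and 1600, so deltaTry was the most counted of these 4 neighbours. Reads that fit several of them were not counted.

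A few proteases outside the cluster had their highest level in the early pupa. CG18180 had 28664 CPM in kept cells of the early pupa, 502 CPM in immature adults and 2806 CPM in mature adults, and CG18179 had 4727, 82.2 and 33.0 CPM. Jon25Bi, a Jonah protease, had 9449 CPM in the mature adult, against 23.4 CPM in the immature adult. These genes were chosen after their values were seen.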
